A study of Homo sapiens with 12 samples.

Results

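Genes annotated as long noncoding hosts of small nucleolar RNAs (snoRNAs) were examined in C4.2B cells treated with an AKT inhibitor, an EZH2 inhibitor or both. The members were the gene names made of SNHG (small nucleolar RNA host gene) and a number, together with GAS5, ZFAS1, EPB41L4A-AS1 and DANCR, in the raw count table. They made up 29 of 58735 gene entries, with 28 distinct symbols because SNHG28 was listed 2 times. Of these, 24 passed the filter on low counts and were tested, among 16646 tested genes in all.

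C4.2B is a castration-resistant human prostate cancer cell line descended from LNCaP. RNA-seq of polyadenylated RNA was performed in 4 arms of 3 libraries, named A, B and C, which were DMSO vehicle, ipatasertib at 0.25 μM (AKTi), tazemetostat at 1 μM (EZH2i) and both agents at these doses (combination). EZH2i and combination cells had received tazemetostat for 6 days beforehand, and every arm was collected 24 hours after the switch to medium with 10% charcoal-stripped FBS, so that all arms shared androgen-depleted serum. All results come from 1 cell line, and, by the study's methods, replicates were separately seeded plates of pretreated cells, so p-values measure the spread between plates of this line.

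Libraries held 14133755 to 22276417 counts. The luminal prostate markers KLK3, FOLH1, HOXB13 and STEAP1 were present in every library. KLK3 and FOLH1 stood at 1372 ± 29.6 and 998 ± 23.6 CPM (the usual counts-per-million unit, SD, n = 3) in DMSO and at 3941 ± 52.6 and 1343 ± 30.1 CPM in the combination. HOXB13 was lower there (294 ± 7.74 CPM against 424 ± 18.8 CPM), and STEAP1 was not called (227 ± 6.20 CPM against 211 ± 16.7 CPM). Of 12 markers of stromal, immune and endothelial cells, 4 were tested. Their summed level was 7.43 to 10.9 CPM in DMSO, 8.75 to 10.1 after AKTi, 24.2 to 26.6 after EZH2i and 17.4 to 21.4 after both, mostly from COL1A1 and VWF, while CD3E had no count in any library. The part of these markers in the results was not tested. In a bulk sample, fewer cells of a kind and less RNA per cell cannot be told apart.

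snoRNAs are short nucleolar RNAs that guide the chemical modification of ribosomal RNA. Box C/D snoRNAs (SNORD) direct ribose methylation and box H/ACA snoRNAs (SNORA) direct pseudouridine formation, whereas the related scaRNAs act on spliceosomal RNAs. In human cells most are cut out of the introns of a longer host transcript. The spliced exons that remain are polyadenylated, and in several hosts they start with a terminal oligopyrimidine (TOP) tract, the element through which the AKT and mTOR pathway controls translation of ribosomal protein mRNAs. Such exons carry short reading frames, and the transcripts are often removed by nonsense-mediated decay once ribosomes engage them.

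The values below are counts on the host genes in polyadenylated RNA and do not describe the snoRNAs themselves. The gene length covers nearly the whole span of some members, such as SNHG1 (3756 bases, chr11:62851988-62855914) and SNHG9 (551 bases). Spliced and intron-holding transcripts are therefore not told apart. Of 137 small RNA entries inside the members in the count table, 94 had no count in any library, and all of them together held 1918 counts over the 12 libraries. The members carried SNORD genes only in 9 cases, SNORA genes only in 10 and both in 2, and SNHG10, SNHG20, SNHG21 and SNHG22 held a scaRNA. SNHG14 alone held 83 SNORD genes. The table listed none inside GAS5, for which RefSeq gives 10 SNORD genes and 1 SNORA gene.

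The following snoRNAs of members on which the results turn are shown from the GRCh38 genome, to make visible what each host carries. Capitals mark box C and box D in the SNORD sequences, or the ACA near the end of the SNORA sequences.
SNORA9 in SNHG15 (chr7:44985378-44985510, minus strand): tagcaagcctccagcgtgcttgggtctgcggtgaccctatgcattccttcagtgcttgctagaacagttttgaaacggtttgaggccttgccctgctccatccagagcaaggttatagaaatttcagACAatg
SNORD25 in SNHG1 (chr11:62855564-62855632, minus strand): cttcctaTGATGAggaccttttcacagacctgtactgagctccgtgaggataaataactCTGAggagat
SNORD1B in SNHG16 (chr17:76561109-76561192, plus strand): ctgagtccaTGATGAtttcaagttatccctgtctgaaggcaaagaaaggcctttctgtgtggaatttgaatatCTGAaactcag
SNORA26 in DANCR (chr4:52713249-52713370, plus strand): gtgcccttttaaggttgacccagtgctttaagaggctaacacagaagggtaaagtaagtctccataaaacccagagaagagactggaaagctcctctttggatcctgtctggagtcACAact
SNORA17A in SNHG7 (chr9:136726747-136726879, minus strand): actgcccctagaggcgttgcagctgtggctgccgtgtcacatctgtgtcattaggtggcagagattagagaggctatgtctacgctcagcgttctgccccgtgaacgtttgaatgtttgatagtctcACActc
SNORA24 in SNHG8 (chr4:118279190-118279320, plus strand): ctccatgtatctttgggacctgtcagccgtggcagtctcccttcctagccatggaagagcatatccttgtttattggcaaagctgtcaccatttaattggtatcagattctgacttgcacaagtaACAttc
SNORA13 in EPB41L4A-AS1 (chr5:112161485-112161617, plus strand): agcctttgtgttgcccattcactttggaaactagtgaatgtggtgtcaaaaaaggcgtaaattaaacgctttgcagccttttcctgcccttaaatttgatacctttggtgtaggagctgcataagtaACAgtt
The first 4 lie in members that fell in the combination, SNORA17A lies in a member that fell with EZH2i alone, and the last 2 lie in members that rose in the combination.

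The members differed widely in level before any inhibitor was added. Per kilobase of the table's gene length, DANCR, a noncoding RNA named for opposing differentiation, was the highest in DMSO at 194 ± 6.49 RPKM (CPM per kilobase, SD, n = 3). SNHG19 followed at 169 ± 28.2 RPKM and lay within its own spread of DANCR. GAS5, the growth arrest-specific transcript, stood at 79.6 ± 8.86 RPKM and SNHG8 at 70.8 ± 0.81 RPKM, and the spreads of these 2 neighbours touched. SNHG26 was the lowest tested member at 0.61 ± 0.16 RPKM. The gene length was 342 bases for SNHG19, 3756 for SNHG1 and 43324 for SNHG14. This order depends on such lengths, which need not be those of the mature RNA.

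**Figure D1:**
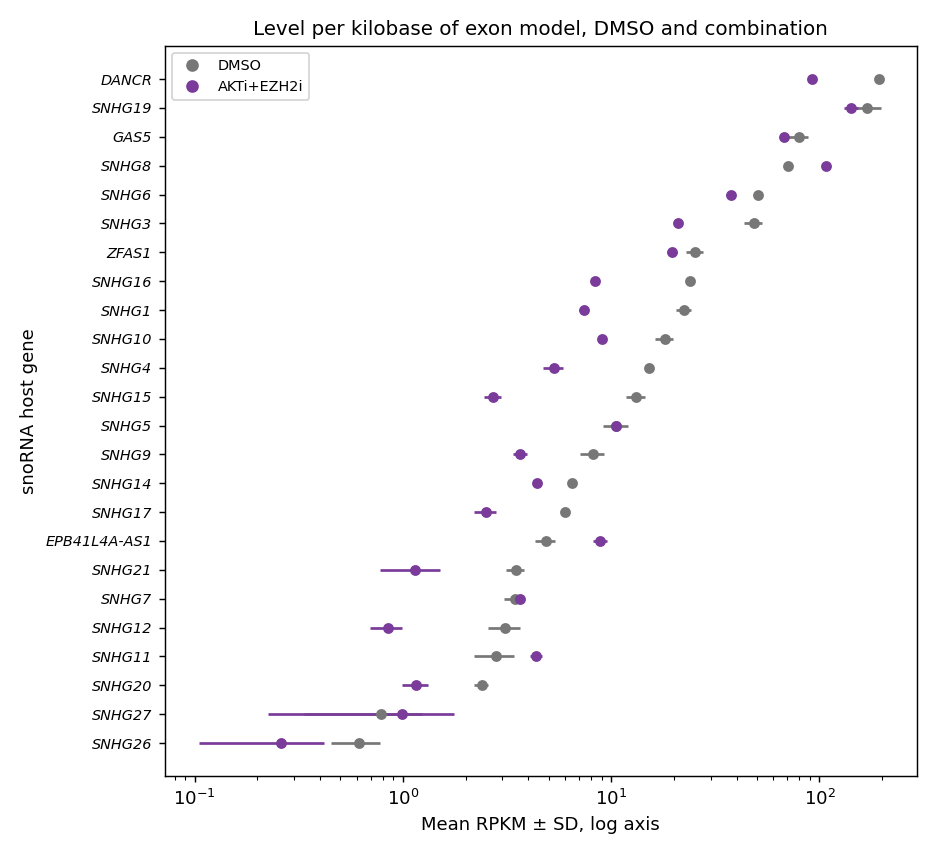
Mean level per kilobase of gene length (RPKM, log axis) of the 24 tested members in DMSO and the combination, with SD over 3 libraries. DANCR falls from the highest place at 194 to 92.3 RPKM, while SNHG8 rises from 70.8 to 107 RPKM and becomes the second highest after SNHG19 at 142 RPKM.

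The members together had a lower summed level with the inhibitors, relative to library sizes scaled by TMM. Their summed level was 1952 ± 87.7 CPM with vehicle, 1805 ± 35.7 CPM with AKTi, 1310 ± 59.4 CPM with EZH2i and 1209 ± 23.2 CPM with both (SD over 3 libraries). Every EZH2i library (1244 to 1360.5 CPM) and every combination library (1186 to 1233 CPM) lay below every DMSO library (1851 to 2011 CPM), whereas the highest AKTi library (1843 CPM) lay just under the lowest DMSO library. The TMM factors ran from 0.93 in DMSO replicate A to 1.09 in combination replicate C. The sums were not recomputed by the other scalings, so the narrow gap between AKTi and DMSO is shown for TMM only. DANCR, SNHG14 and GAS5 made up 22.7%, 14.5% and 14.8% of the sum in DMSO. In the combination the share of DANCR was 17.4% and that of GAS5 20.4%.

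The first question was what the combination did to these genes relative to vehicle. Of 24 tested members, 17 fell, 3 rose and 4 were not called by edgeR's quasi-likelihood test at an adjusted p under 0.05, beside 35.2% of all tested genes called lower and 38.0% called higher. Lower calls thus took 70.8% of the members. The median log2 fold change of the members was -1.02, against 0.06 over all tested genes, and the groups did not overlap in 19 members (79.2%), beside 74.5% of all tested genes, a share near the background. Of the 20 calls, 17 were kept under every alternative setting, and the number of lower calls ranged from 15 to 18 when each library was left out.

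SNHG15, a host with a single SNORA known as a short-lived transcript, fell the most. It was measured at 50.6, 51.6 and 42.1 CPM in DMSO, 29.0, 27.2 and 29.8 in AKTi, 15.5, 17.1 and 18.0 in EZH2i and 9.63, 10.9 and 9.12 in the combination. The 4 arms formed 4 separate steps without overlap. The log2 fold change was -0.74 ± 0.09 (SE) with AKTi, -1.50 ± 0.10 with EZH2i and -2.28 ± 0.10 with the combination (edgeR adjusted p = 1.7e-27 for the last).

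SNHG12, which carries both classes of snoRNA, was the next. Its DMSO libraries held 10.7, 15.3 and 13.7 CPM, its AKTi libraries 7.74, 6.59 and 7.09, its EZH2i libraries 6.16, 8.42 and 5.10, and its combination libraries 2.89, 4.09 and 3.81. Each single agent was below DMSO, both single agents overlapped each other, and the combination was below all of them. The log2 fold change in the combination was -1.88 ± 0.18 (edgeR adjusted p = 4.5e-14).

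SNHG21, a scaRNA host of low abundance, showed 3.97, 3.76 and 3.26 CPM in DMSO, 3.26, 2.80 and 2.99 in AKTi, 2.61, 2.63 and 1.42 in EZH2i and 0.76, 1.38 and 1.45 in the combination. The combination libraries were all below the DMSO libraries but overlapped EZH2i. The change in the combination was -1.62 ± 0.30 on the log2 scale (edgeR adjusted p = 3.2e-06), and it rested on 63 counts over the 3 combination libraries.

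SNHG1, a host of several SNORD genes, fell with either agent. It went from 83.7, 90.9 and 77.2 CPM in DMSO to 44.6, 42.4 and 40.0 in AKTi, 28.9, 30.5 and 28.6 in EZH2i and 26.3, 27.5 and 29.2 in the combination. The EZH2i and combination libraries overlapped, and both stood below AKTi. The log2 fold changes were -0.98 ± 0.08, -1.52 ± 0.08 and -1.60 ± 0.08, with an edgeR adjusted p of 2.9e-26 for the combination.

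SNHG4 is overlapped over all of its 10798 bases by an entry of MATR3 on the same strand, so the 2 may share reads. It held 69.3, 69.2 and 66.2 CPM in DMSO, 60.4, 58.0 and 56.2 in AKTi, 29.4, 36.3 and 31.0 in EZH2i and 21.3, 26.5 and 23.4 in the combination. All 4 arms were separate, with the step at AKTi the smallest. The combination differed from DMSO by -1.52 ± 0.08 on the log2 scale (edgeR adjusted p = 4.4e-24).

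SNHG16, which carries 3 SNORD genes, fell with EZH2i, and no further change was called in the combination. It stood at 125, 126 and 133 CPM in DMSO, 115, 115 and 117 in AKTi, 41.5, 45.6 and 46.2 in EZH2i and 43.0, 45.6 and 45.6 in the combination. The EZH2i and combination libraries covered the same range. The log2 fold change was -1.52 ± 0.06 with EZH2i and -1.52 ± 0.06 with the combination (edgeR adjusted p = 4.8e-29), and the combination against EZH2i gave 0.01 ± 0.07 (edgeR adjusted p = 0.95).

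**Figure D2:**
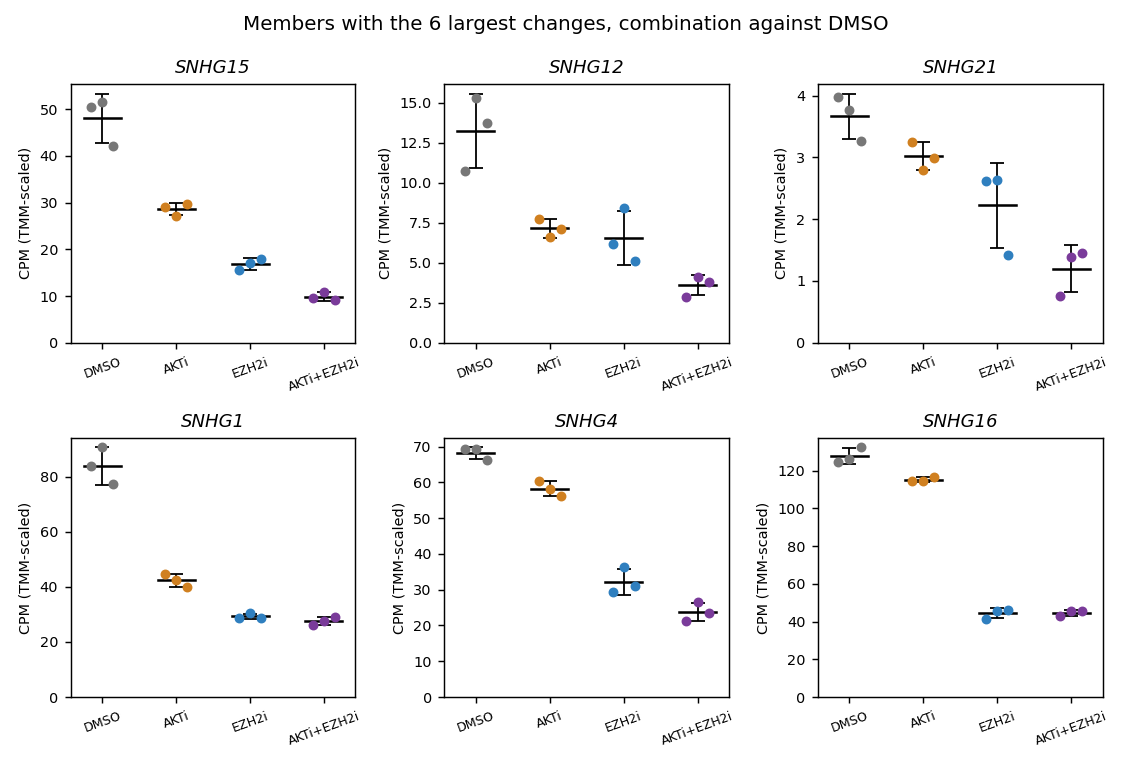
CPM per library (points), mean and SD (bars) of the 6 members with the largest called change in the combination against DMSO, with each vertical axis from 0. SNHG15 steps down through all 4 arms from 48.1 to 9.88 CPM, while SNHG16 and SNHG1 have nearly reached their combination level with EZH2i alone.

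The other members that fell in the combination ranged from -1.25 ± 0.12 (SNHG17) to -0.23 ± 0.08 (GAS5) on the log2 scale. DANCR fell from 458, 444 and 428 CPM in DMSO to 377, 373 and 371 in AKTi, 294, 295 and 264 in EZH2i and 208, 216 and 209 in the combination. These 4 arms were separate as well, and the combination differed by -1.07 ± 0.05 (edgeR adjusted p = 5.6e-26). SNHG3, SNHG9, SNHG10, SNHG20 and SNHG26 fell by 1.22, 1.15, 1.00, 1.05 and 1.20 on the log2 scale. SNHG26 rested on 79 counts in DMSO and 38 in the combination, and its call was lost without DMSO replicate A (edgeR adjusted p = 0.076) or combination replicate C (0.091).

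GAS5 and ZFAS1, 2 hosts described as TOP transcripts, changed far less than the members with the largest falls. They do not stand for all members with a pyrimidine run at the start, by the rule given further below. By that rule 8 members that fell have a run, as do 2 that rose and 3 that were not called. Among those that fell, SNHG4, SNHG12 and SNHG16 have it and fell by 1.52, 1.88 and 1.52, while none was found at the RefSeq start of GAS5. The count table's start minus the RefSeq start was 163 bases for GAS5 and -1259 for SNHG12. The run of SNHG4 begins at -10 from the RefSeq start and spans 5 bases, so it ends before that start. Whether a run goes with the size of the change was not tested. GAS5 held 302, 313 and 252 CPM in DMSO, 287, 273 and 253 in AKTi, 238, 243 and 199 in EZH2i and 248, 256 and 235 in the combination. The DMSO and combination libraries overlapped. The fall of 0.23 in the combination was called (edgeR adjusted p = 0.014) but not without combination replicate C (-0.20, adjusted p = 0.058), with scaling by library size only (-0.03, adjusted p = 0.71) or by upper quartile (-0.04, adjusted p = 0.66), or among genes with at least 10 counts in every library (-0.16, adjusted p = 0.065). ZFAS1, transcribed from the start of ZNFX1 on the other strand, fell by 0.36 (edgeR adjusted p = 5.3e-05), and that call was lost by library size only (-0.16, adjusted p = 0.056).

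Only SNHG8, SNHG11 and EPB41L4A-AS1 rose in the combination under the main scaling, and SNHG7 joined them by library size only (0.29, edgeR adjusted p = 0.038) and by upper quartile (0.27, adjusted p = 0.049). SNHG8, a host of 1 SNORA, went from 66.0, 64.5 and 65.4 CPM in DMSO to 80.9, 79.5 and 85.6 in AKTi, 74.3, 62.1 and 64.8 in EZH2i and 99.2, 102 and 95.0 in the combination. AKTi and the combination each lay above all DMSO libraries, whereas EZH2i overlapped them. The rise was 0.33 ± 0.07 on the log2 scale with AKTi and 0.60 ± 0.07 with the combination (edgeR adjusted p = 6.0e-12). EPB41L4A-AS1, an antisense transcript within the EPB41L4A locus, rose by 0.79 ± 0.11 with AKTi, 0.39 ± 0.11 with EZH2i and 0.87 ± 0.11 with the combination, from 16.2 ± 1.77 CPM to 29.5 ± 2.27 CPM in the last (edgeR adjusted p = 3.0e-10). Its rise with EZH2i was not called without EZH2i replicate A (0.25, adjusted p = 0.055).

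**Figure D3:**
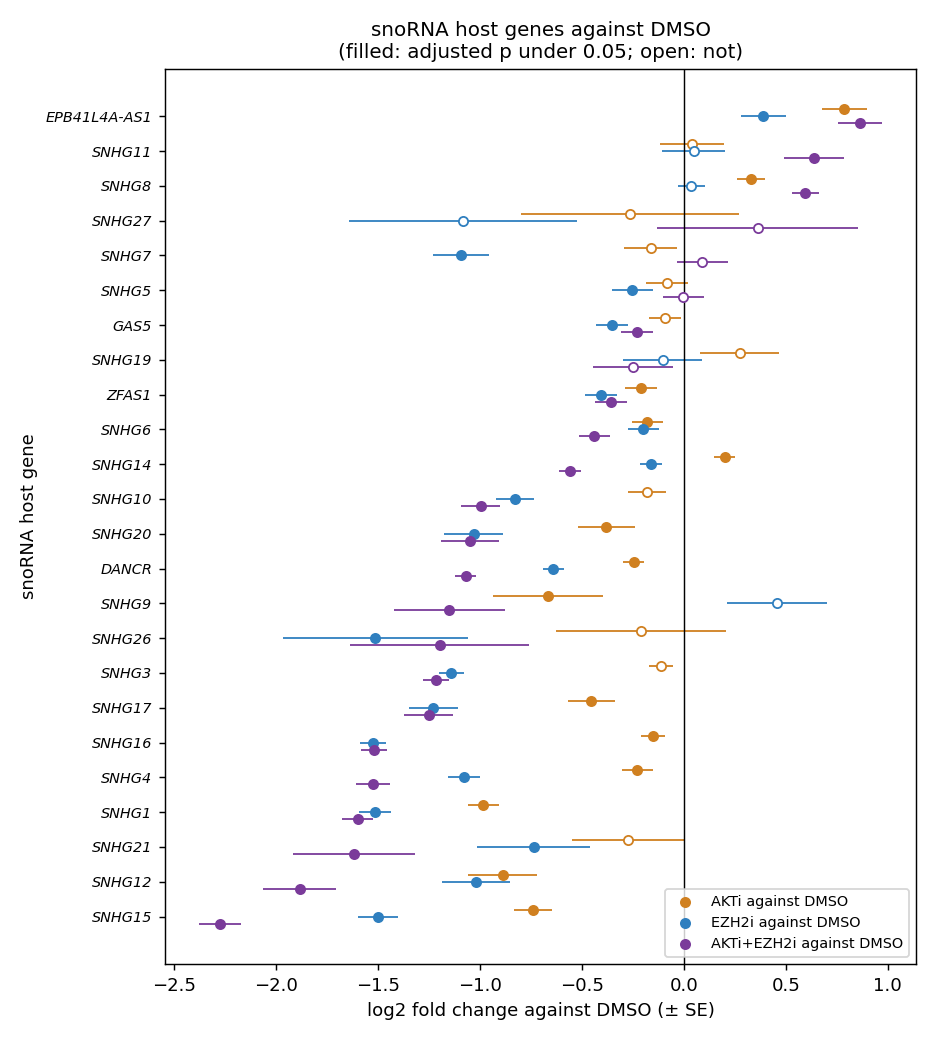
log2 fold change against DMSO with SE for each tested member in AKTi, EZH2i and the combination, filled where the edgeR adjusted p was under 0.05. The EZH2i and combination points lie left of zero for most members and the AKTi points closer to zero, with EPB41L4A-AS1 and SNHG8 on the right.

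Each single agent was then compared with vehicle. With AKTi, 11 members fell, 3 rose and 10 were not called, beside 22.0% and 20.7% of all tested genes, and the median change was -0.20 on the log2 scale. By library size only or by upper quartile 5 fell and 3 rose, and without DMSO replicate A, AKTi replicate A or AKTi replicate C 7 fell. The calls of SNHG4, SNHG6, SNHG9, SNHG16, SNHG20 and ZFAS1 were lost under some alternative, and those of DANCR, SNHG1, SNHG12, SNHG15 and SNHG17 and of the 3 risers were kept in all. The largest falls were those of SNHG1, SNHG12 and SNHG15.

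With EZH2i, 18 members fell, 1 rose and 5 were not called, beside 31.6% and 32.6% of all tested genes. The median was -0.78, and lower calls took 75.0% of the members. By library size only 14 fell and 3 rose, and by upper quartile 15 fell and 3 rose. SNHG16, SNHG1, SNHG26 and SNHG15 fell by 1.52, 1.52, 1.51 and 1.50 on the log2 scale. SNHG5, which carries SNORD50B, and SNHG7 fell with EZH2i and were not called in the other arms. Of the 19 calls 14 were kept in every alternative, and the exceptions were EPB41L4A-AS1, SNHG5, SNHG6, SNHG14 and SNHG21. By library size only the calls of SNHG5 (-0.11, adjusted p = 0.36), SNHG6 (-0.05, 0.55), SNHG14 (-0.02, 0.80) and SNHG21 (-0.59, 0.057) were lost, and by upper quartile those of SNHG5, SNHG6 and SNHG14 (adjusted p = 0.26, 0.36 and 0.48). SNHG5 was also lost with at least 10 counts in every library (0.053), with DESeq2 (0.060) and without DMSO replicates A or B or EZH2i replicate B (0.081, 0.087 and 0.094). SNHG6 was lost without DMSO replicate A or EZH2i replicate B (0.064 and 0.18), and SNHG21 without DMSO replicate A or EZH2i replicate C (0.059 and 0.13).

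The library EZH2i replicate A stood apart for short members. SNHG9, a host of 551 bases, measured 10.4 CPM there and 4.38 and 4.04 CPM in replicates B and C, against 5.18, 4.13 and 4.17 in DMSO, 2.97, 2.87 and 2.64 in AKTi and 1.88, 2.19 and 1.99 in the combination. SNHG19, of 342 bases, measured 71.7 CPM there and 43.5 and 46.6 CPM in the other EZH2i libraries, against 67.0, 58.9 and 47.8 in DMSO, 70.9, 69.2 and 68.9 in AKTi and 44.1, 50.5 and 50.9 in the combination. Over 778 tested genes under 1000 bases with a mean of at least 1 CPM, the median deviation of this library from its arm was 0.13 on the log2 scale, against -0.01 over 13596 longer genes, and that of DMSO replicate C was -0.10 over the short genes. Without it SNHG19 fell by 0.38 with EZH2i (edgeR adjusted p = 0.00042) and by 0.31 with the combination (0.0009), and rose by 0.27 with AKTi (0.0052), none of which was called with it. SNHG9 with EZH2i changed from 0.46 to -0.12, neither called. Without this library the members counted in the combination were 18 lower and 3 higher, and with EZH2i 19 lower and 0 higher. For that 0, EPB41L4A-AS1 had an edgeR adjusted p of 0.055.

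The arms were next compared with one another. The combination was below AKTi in 14 members and above it in 2 (SNHG8 and SNHG11), beside 32.0% and 32.1% of all tested genes, with a median of -0.64 on the log2 scale. Against EZH2i the combination was lower in 8 members and higher in 6, beside 25.7% and 21.2%, with a median of -0.05. The higher ones included SNHG27, whose libraries overlapped between these arms. EZH2i was below AKTi in 16 members and above it in 1 (SNHG9, not called without EZH2i replicate A, adjusted p = 0.070), beside 25.1% and 25.4%, with a median of -0.43. The pattern given next was not counted over all tested genes, so it is not known to be more frequent in the members. Lower calls of the combination against EZH2i, which it requires, took 33.3% of the members, beside 25.7% of all tested genes. In 7 members, DANCR, SNHG4, SNHG6, SNHG12, SNHG14, SNHG15 and SNHG21, the combination was called lower than AKTi, than EZH2i and than DMSO. Of these, SNHG6 lost a call against AKTi by library size only (edgeR adjusted p = 0.16) and upper quartile (0.13) and against EZH2i by upper quartile (0.053) or without EZH2i replicate A (0.070), and SNHG21 lost the call against EZH2i without EZH2i replicates A or B or combination replicate A (0.058, 0.082 and 0.13).

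The difference of the combination from the sum of the 2 single effects on the log2 scale (interaction) was called in 4 members, 3 higher and 1 lower, beside 10.8% and 17.7% of all tested genes. Higher calls thus took 12.5% of the members, near the background share, and lower calls 4.17%, below it. The interactions below are therefore values of single genes and not a trait of the members. For the other 20 members the interaction was not called, at -0.04 ± 0.14 for SNHG15, 0.03 ± 0.26 for SNHG12 and -0.19 ± 0.07 for DANCR (edgeR adjusted p = 0.051). The number of higher calls was 6 without DMSO replicate C and 5 without AKTi replicate C, and that of lower calls 3 without DMSO, AKTi or EZH2i replicate A and 2 without EZH2i replicates B or C.

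SNHG7, a host of SNORA17A and SNORA17B, had the largest called interaction. It held 14.8, 16.7 and 13.4 CPM in DMSO, 13.8, 12.7 and 13.4 in AKTi, 8.91, 6.25 and 6.02 in EZH2i and 15.7, 15.7 and 16.2 in the combination. EZH2i alone lay below every other library, and the combination was back at the DMSO level, with a difference from DMSO of 0.09 ± 0.13 on the log2 scale. The interaction was 1.35 ± 0.19 (edgeR adjusted p = 6.9e-08). For SNHG1, described above, the interaction was 0.90 ± 0.11 (edgeR adjusted p = 2.8e-09).

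SNHG14 is the long imprinted transcript of the Prader-Willi region, which runs antisense into UBE3A. It measured 270.3, 279 and 295 CPM in DMSO, 329, 321 and 321 in AKTi, 238, 254 and 263 in EZH2i and 188, 185 and 201 in the combination. AKTi lay above and the combination below all DMSO libraries. The log2 changes were 0.20 ± 0.05 with AKTi, -0.16 ± 0.05 with EZH2i and -0.56 ± 0.05 with the combination, and the interaction was -0.60 ± 0.07 (edgeR adjusted p = 4.3e-09). SNHG11 was near its DMSO level (6.06, 9.44 and 8.15 CPM) in AKTi (7.88, 8.06 and 8.34) and EZH2i (8.44, 8.83 and 7.26) and above it in the combination (11.6, 12.1 and 13.1). Its interaction of 0.55 ± 0.21 (edgeR adjusted p = 0.047) was lost in 13 of 18 alternatives, with adjusted p between 0.013 and 0.14 over all of them. These included leaving out DMSO replicates B or C, AKTi A or B, EZH2i A or C, or any combination replicate, where the value stayed between 0.45 and 0.59.

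**Figure D4:**
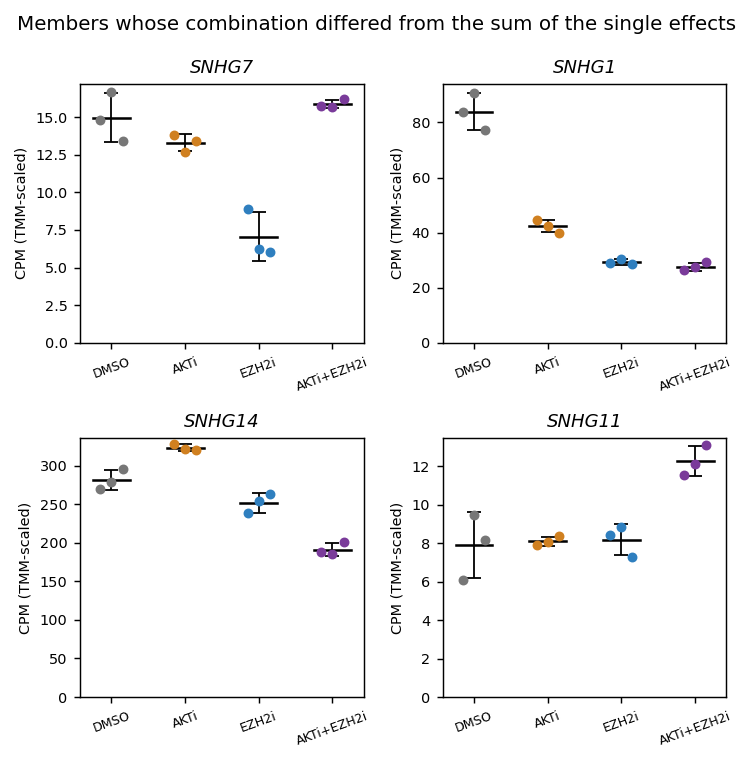
CPM per library (points), mean and SD (bars) of the 4 members whose combination differed from the sum of the single effects, with each vertical axis from 0. SNHG7 is low with EZH2i alone (7.06 CPM) and at 15.9 CPM in the combination, SNHG14 is lowest in the combination (191 CPM) and SNHG11 is highest there (12.3 CPM).

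Members outside the test are few. SNHG18 and both SNHG28 entries had no count in any library, which allows at most 3 counts per group. SNHG22 had 3, 4, 19 and 15 counts in DMSO, AKTi, EZH2i and the combination, and SNHG25 had 37, 23, 12 and 2. No fold change is given for them. SNHG27, which passed the filter with 43, 32, 23 and 61 counts, was not called against DMSO in any arm (0.36 ± 0.49 in the combination).

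The start of the transcript was examined because the TOP tract is known to lie there. In RefSeq promoters (GRCh38.p14), 24 of 28 member symbols had an entry. A C followed by at least 4 further C or T, beginning within 10 bases of the annotated start on the transcribed strand, was present in 14 of them (58.3%), beside 11755 of 35116 promoters (33.5%). Among members with an entry, it was present in 8 of 14 that fell, 2 of 3 that rose and 3 of 4 that were not called in the combination. The E-box CACGTG (searched over the whole promoter entry, 250 bases before to 50 from the start on, and its own reverse complement) was in 1 of the 24 (4.17%), SNHG7, beside 7.26% of all promoters. These starts can lie away from those in the count table, by 154975 bases for SNHG14, 163 for GAS5 and -1259 for SNHG12. A match, or the lack of it, is a description of letters and not of a used start.

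Windows of 10 bases before and 30 from the start on are shown for GAS5 and ZFAS1, described above as TOP hosts, for SNHG5, which was not called in the combination, for SNHG8, which rose, and for SNHG16, SNHG12 and SNHG1, which fell strongly. Capitals mark the run where the rule found one.
GAS5 (chr1:173869016-173869055, minus strand): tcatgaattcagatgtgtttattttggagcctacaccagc
ZFAS1 (chr20:49278632-49278671, plus strand): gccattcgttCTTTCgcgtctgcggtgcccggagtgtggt
SNHG5 (chr6:85678704-85678743, minus strand): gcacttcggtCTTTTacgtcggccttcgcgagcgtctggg
SNHG8 (chr4:118278752-118278791, plus strand): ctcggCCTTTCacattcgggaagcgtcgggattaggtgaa
SNHG16 (chr17:76557754-76557793, plus strand): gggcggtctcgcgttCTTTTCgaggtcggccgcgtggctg
SNHG12 (chr1:28581844-28581883, minus strand): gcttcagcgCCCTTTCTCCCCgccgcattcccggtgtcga
SNHG1 (chr11:62855856-62855895, minus strand): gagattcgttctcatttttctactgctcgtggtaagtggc
ZFAS1 and SNHG5 have the run at the RefSeq first base itself, as in ribosomal protein genes. SNHG8, SNHG16 and SNHG12 have a run near it, and GAS5 and SNHG1 have none by this rule.

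Several members share a promoter region or sequence with a coding gene, and the neighbours did not move as 1 group with them. ZBTB37, divergent from GAS5, rose by 1.42 ± 0.08 on the log2 scale in the combination, from 29.1 ± 2.77 to 77.2 ± 6.65 CPM. ZNFX1, a zinc finger helicase whose start overlaps that of ZFAS1, rose by 1.09 ± 0.07. SEC14L1, which overlaps SNHG20 on the same strand, rose by 1.31 ± 0.07, in contrast to the fall of SNHG20. RCC1, the exchange factor of the Ran GTPase, starts 37 bases from SNHG3 on the same strand and overlaps all 4913 bases of SNHG3. RCC1 fell by 2.52 ± 0.06 from 256 ± 8.38 to 44.8 ± 1.63 CPM, more than SNHG3 itself. GLRX5 beside SNHG10 fell by 1.12 ± 0.06, and RPS2, whose start lies 99 bases from that of SNHG9, fell by 0.62 ± 0.05. All of these were called by edgeR, with adjusted p of 4.0e-16 or lower. Also called were MCMDC2 opposite SNHG6 (-0.78 ± 0.13, adjusted p = 3.7e-07), TRAF7 beside SNHG19 (-0.41 ± 0.06, 7.2e-08) and FAM69B opposite SNHG7 (0.92 ± 0.13, 1.9e-08). Beside members that were not tested, MYO5B and ACAA2 at SNHG22 rose by 2.33 ± 0.08 and 3.12 ± 0.14, and SEMA5A at SNHG18 rose by 4.01 ± 0.67 from 0.083 to 1.43 CPM.

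SLC3A2, the heavy chain of amino acid transporters at the plasma membrane, starts 188 bases from SNHG1 on the other strand. It held 325, 327 and 339 CPM in DMSO, 272, 280.4 and 271 in AKTi, 182, 165 and 171 in EZH2i and 433, 434 and 415 in the combination. Both genes fell with each single agent, but in the combination SLC3A2 was above every DMSO library (0.37 ± 0.05, edgeR adjusted p = 3.5e-09) and SNHG1 below. The interaction of SLC3A2 was 1.58 ± 0.07 (edgeR adjusted p = 2.1e-25). UBE3A (-0.10 ± 0.06) and SNRPN (-0.11 ± 0.11), which overlap SNHG14, were not called in the combination, and neither were TRNAU1AP beside SNHG12 (-0.17 ± 0.09) or SIL1 opposite SNHG4 (0.14 ± 0.07). The strand setting of the counting is not given in the sources used here, so reads of overlapping genes cannot be told apart.

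**Figure D5:**
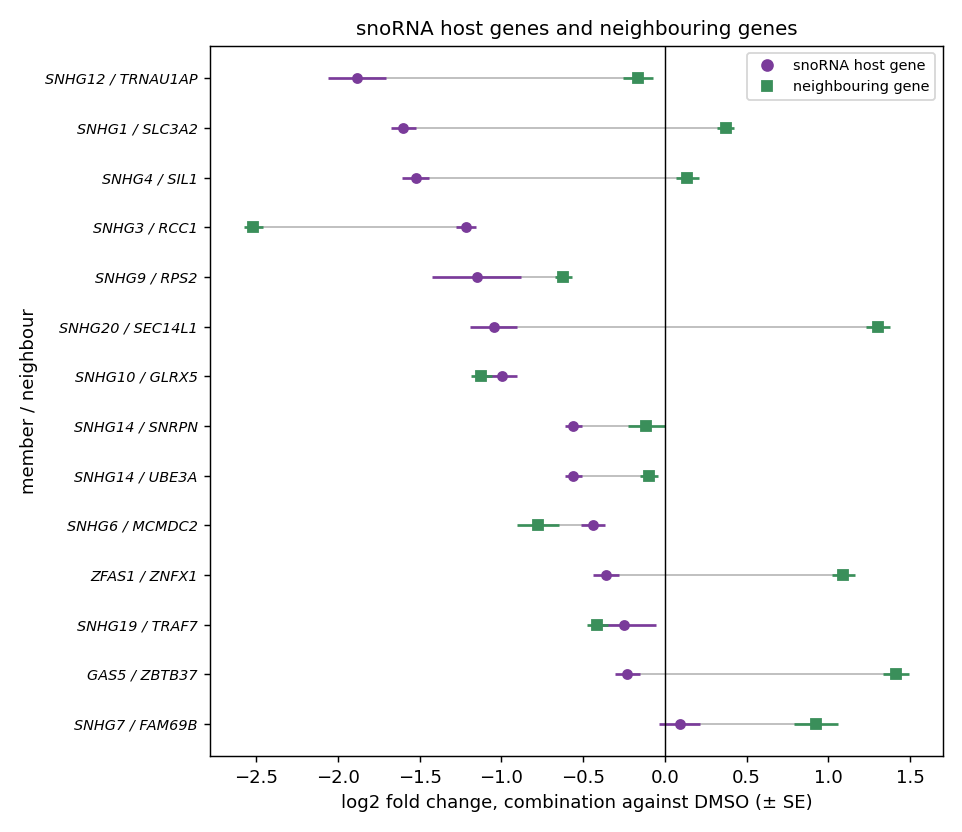
log2 fold change with SE in the combination against DMSO for members (circles) and the neighbouring genes that overlap them or start within 1000 bases (squares), joined by a line. SLC3A2, SEC14L1, ZNFX1 and ZBTB37 lie on the right of zero while their SNHG1, SNHG20, ZFAS1 and GAS5 partners lie on the left, and RCC1 falls further than SNHG3.

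The mRNAs of proteins that bind snoRNAs were lower as well, and protein levels were not measured. All 8 mRNAs for core proteins of snoRNA particles fell in the combination, beside 35.2% of all tested genes, with a median of -1.28 on the log2 scale. Among those for box C/D proteins, NOP56 fell by 2.06 ± 0.06, NOP58 by 1.90 ± 0.06, the methyltransferase fibrillarin (FBL) by 1.52 ± 0.06 and SNU13 by 1.27 ± 0.06. Among those for box H/ACA proteins, NHP2 fell by 1.29 ± 0.07, the pseudouridine synthase DKC1 by 1.21 ± 0.06, NOP10 by 0.52 ± 0.06 and GAR1 by 0.49 ± 0.09. With AKTi 6 of the 8 fell, beside 22.0% of all tested genes, and with EZH2i 7, beside 31.6%. The medians were -0.26 and -0.98. By library size only or upper quartile, 8 fell in the combination and 4 with AKTi.

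Of 12 assembly factors, 10 fell in the combination, beside 35.2% of all tested genes, with a median of -0.96. The falls were led by the ATPases RUVBL1 (-1.95 ± 0.06) and RUVBL2 (-1.53 ± 0.06) and by the nucleolar chaperone NOLC1 (-1.53 ± 0.06). AAR2 and ZNHIT3 were not called at -0.16 ± 0.08 and 0.16 ± 0.09. By upper quartile 10 fell and 1 rose. Of 7 regulators of TOP mRNAs 6 fell, beside the same 35.2% of all tested genes, with a median of -0.65. By library size only or upper quartile 5 of these regulators fell and 1 rose. LARP1, the repressor that binds TOP mRNAs when mTOR is inhibited, changed by -0.21 ± 0.05 and its relative LARP4 by -1.12 ± 0.07, and the poly(A)-binding protein PABPC1 was not called (-0.01 ± 0.05).

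The nonsense-mediated decay factors were called in both directions at shares near those of all tested genes. Of 15, 5 rose (33.3%) and 6 fell (40.0%) in the combination, beside 38.0% and 35.2% of all tested genes. The median was -0.04, and by library size only or upper quartile 8 rose and 6 fell. The endonuclease SMG6 rose by 1.05 ± 0.09, UPF2 by 0.51 ± 0.07 and the kinase SMG1 by 0.43 ± 0.06. The exon junction proteins EIF4A3, MAGOH and RBM8A fell by 1.04, 0.90 and 0.75 on the log2 scale, and UPF1, the central helicase, was not called (-0.04 ± 0.06).

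Other genes that carry snoRNAs, and other long noncoding genes, give the surroundings of these values. Ribosomal protein genes with a snoRNA in an intron fell in 27 of 28 cases in the combination, with a median of -0.64, from RPL17 at -0.97 ± 0.09 to 1 gene that was not called. Other coding snoRNA hosts fell in 70 of 105 cases and rose in 17, with a median of -0.58, and RCC1 and NOP56 had the lowest called values while HTR2C (1.94 ± 0.18) and AAK1 (1.75 ± 0.07), a kinase of clathrin adaptors, had the highest. By library size only 64 of these hosts fell and 24 rose. RCC1 overlaps all of SNHG3 on the same strand, so its span holds SNORA73A and SNORA73B of that member. It is therefore not a host apart from the members. Long noncoding genes other than the members went the other way, with 994 of 2341 higher (42.5%), 283 lower (12.1%) and a median of 0.54. Only these 2341 of 14966 such genes passed the filter, which keeps a gene with enough counts in the libraries of any arm. Genes nearly silent in DMSO thus enter through the arms where they are high, which favours higher calls. The size of this effect was not tested. Of all tested genes, 38.0% were higher and 35.2% lower. No test compared these lists with the members.

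Members were also divided by whether the table lists a SNORD or SNORA gene inside them, with no test between the 2 sets. In the combination, 35.2% of all tested genes were called lower and 38.0% higher. Of the tested members with a SNORD or SNORA gene, 13 of 19 fell and 3 rose, with a median of -1.07. Of those without one, 4 of 5 fell, with a median of -1.00. Those without one include GAS5, for which the table lists no snoRNA, and the scaRNA hosts SNHG10, SNHG20 and SNHG21.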

How the data were processed

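RNA-seq of polyadenylated RNA from 12 C4.2B libraries was analysed. The authors aligned reads to hg38 with STAR and counted them on genes with HTSeq. The deposited counts are raw whole numbers with a gene length per entry, and a deposited table of normalized signal holds the same counts after division by a DESeq2 size factor (within 1% for 56994 names in 12 libraries). Versions, gene annotation and strand setting are not given in the sources used here.

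Starting from the counts, genes were filtered with filterByExpr of edgeR 4.0.16 (minimum count 10, minimum total 15) in R 4.3.3, scaled by TMM and tested by edgeR's quasi-likelihood test in a fit of all 12 libraries that gave each arm its own mean, with Benjamini-Hochberg adjustment over 16646 genes, at a threshold of 0.05. CPM uses TMM-scaled library sizes, and RPKM divides it by the table's gene length in kilobases. The SE is the log2 fold change divided by the root of its F statistic. Libraries of 1 arm differed beyond sampling noise (chi-square of 2.57 to 7.77 per gene) and each counted as a replicate. The steps were tested on simulated data.

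Each result was recomputed with DESeq2 1.42.0, with 2 other scalings (total library size, upper quartile), with 2 other filters (a total of 1 count or more, 10 counts or more in all libraries), from the compared libraries alone, with the replicate letter as a block, and without each library in turn. Per-library values are given for the 4 members highest per length in DMSO, the 6 largest called changes in the combination and the 4 largest called interactions, and every member may be named. Those of SNHG9 and SLC3A2 were added after seeing them. In other lists, called genes are named where a list has at most 15 genes, and otherwise the 2 highest and 2 lowest called. The members and lists were chosen with earlier results of these data known. Sequences come from the genome and from RefSeq promoters (GRCh38.p14). Some marker genes are not reported here.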

Additional observations from a re-analysis of the deposited data

Results flagged for a closer look

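The interactions of 4 members were singled out because the effect of 1 agent differed with and without the other, as tested in edgeR's quasi-likelihood test. Such calls took 12.5% (higher) and 4.17% (lower) of the members, beside 10.8% and 17.7% of all tested genes, so they do not set the members apart. On the log2 scale the interaction was 1.35 for SNHG7, 0.90 for SNHG1, 0.55 for SNHG11 and -0.60 for SNHG14. In SNHG7, tazemetostat lowered the level without ipatasertib (-1.09) and the combination was above ipatasertib alone by 0.25, which was not called (adjusted p = 0.082). In SNHG1, ipatasertib lowered the level by 0.98 without tazemetostat, and the combination differed from tazemetostat alone by -0.08, which was not called (adjusted p = 0.42). In SNHG14, ipatasertib raised the level by 0.20 without tazemetostat, while the combination was below tazemetostat alone by 0.40. The interaction of SNHG11 was close to the threshold. SNHG7, SNHG1 and SNHG14 kept their calls in every alternative run for them.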

How the results depend on the processing

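Over 3151 values of members recomputed under an alternative, 2962 kept their call or lack of one, 73 gained a call and 116 lost one. The 2962 include 78 that changed sign with no call either way. None of the called values turned its direction. Of 104 calls, 79 held in every alternative run for them. By library size only and by upper quartile, AKTi lowered 5 members and EZH2i raised 3. The median log2 change by these scalings was -0.64 and -0.66 for EZH2i, -0.82 and -0.84 for the combination, -0.50 and -0.51 for the combination against AKTi and -0.34 and -0.37 for EZH2i against AKTi. By upper quartile it was 0.016 for the combination against EZH2i, the other sign than before. The same scalings moved the median of all tested genes in the combination from 0.06 to 0.26 and 0.25. With at least 10 counts in every library these medians were -0.66, -0.95, -0.57 and -0.36, and the interaction was higher in 7 members. The interaction was lower in 2 members by library size only, with at least 1 count, with the replicate block and with DESeq2. Leaving out each library gave 7 to 12 members lower with AKTi, 0 to 2 higher with EZH2i, 0 to 1 higher in EZH2i against AKTi, and 2 to 6 higher and 1 to 3 lower for the interaction. Medians then ranged from -0.89 to -0.72 (EZH2i), -1.09 to -0.92 (combination), -0.71 to -0.57 (combination against AKTi), -0.58 to -0.40 (EZH2i against AKTi) and 0.058 to 0.174 (interaction). The cause of these changes was not tested. The letters gave no pairing, since deviations of same-letter libraries correlated at -0.06 to 0.07 over 18 pairs, and with the replicate block 10 members were lower with AKTi and 17 in the combination. Low counts limit SNHG21, SNHG26 and SNHG27.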
